A study of Mus musculus with 37 samples.

Results

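Wt1, Tbx18, Tcf21, Upk3b, Upk1b, Sema3d, Msln, Krt19, Lrrn4 and Bnc1 are markers of the epicardium and of mesothelium, the epithelial layer that lines body cavities and covers organs. These 10 symbols were listed by name and all 10 were found among the 25239 gene rows of the count table. All 10 also passed the filter on low counts, which left 15046 genes for testing. RNA of E10.5 mouse embryo hearts was sequenced in bulk, in 37 libraries of 4 genotypes.

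The embryos came from Stra8-iCre; Nipbl Flox/+ fathers, whose sperm carried either the working Flox allele or the null FIN allele of Nipbl, and from Isl1 Cre/+ mothers, in which a Cre recombinase gene takes the place of 1 working Isl1 allele. Nipbl encodes the protein that loads cohesin onto chromosomes, and the product of Isl1 is a LIM-homeodomain factor found in progenitors of the heart. The genotypes are called wild-type (labelled Nipbl +/+; Isl1 +/+, n = 10), Isl1_het (Isl1 +/-, n = 9), Nipbl_het (Nipbl +/-, n = 9) and double_het (Nipbl +/-; Isl1 +/-, n = 9). By this description of the sperm, wild-type and Isl1_het embryos carry a paternal Nipbl Flox allele and the other 2 groups carry FIN. A Flox/+ father can also pass on the + allele, so some wild-type and Isl1_het embryos may lack Flox. Isl1_het and double_het carry the Cre in 1 Isl1 allele. The labels give each library an embryo number and no litter, so p-values measure the spread between these libraries. Which embryos also inherited Stra8-iCre is not given, nor is whether the Cre of Isl1_het embryos acts on a Flox allele. Each label also holds a set number, which follows the letters IVF in the library's description. Set 1 held 3 wild-type and 3 Isl1_het libraries, sets 2, 5 and 6 held all 4 genotypes, and set 7 held only double_het replicate 2, which a fit with set terms reproduces exactly, so fitted double_het values rest on 8 libraries.

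The epicardium arises from the proepicardium, a cluster of mesothelial cells beside the septum transversum, whose cells move onto the bare heart tube and spread over the myocardium. At about the stage sampled here this sheet covers the heart, and some of its cells later lose their epithelial contacts, enter the heart wall and give rise to fibroblasts and mural cells. Wt1, Tbx18 and Tcf21 are the transcription factors most used to mark epicardial cells, and Upk3b, Upk1b, Msln, Krt19 and Lrrn4 encode surface or skeletal proteins of mesothelial cells. In a whole heart, more epicardial cells and more of these transcripts per cell cannot be told apart.

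Depth ranged from 23.4 M to 51 M counts per library. Nipbl, in counts scaled to library size (CPM), was lower in Nipbl_het (mean ± SD 39.3 ± 13.8, log2 change -0.74, adjusted p 3.48e-04 by edgeR) and double_het (38.1 ± 7.41, log2 change -0.82, adjusted p 7.19e-05) than in wild-type (47.6 to 78.8 CPM). The library labelled Nipbl_het replicate 2 went against its label, with 72.4 CPM of Nipbl. In double_het, replicate 2 had 51.5 CPM of Nipbl, inside the wild-type range, against 28.2 to 45.6 CPM in the other 8 libraries, and it is the set 7 library, on which the fitted double_het values do not rest. The log2 change of Nipbl in Nipbl_het without its replicate 2 was -0.88 (adjusted p 5.18e-10 by edgeR), and the main counts and calls below that use the Nipbl_het group are given both ways. Isl1 had 7.37 ± 2.24 CPM in wild-type, 6.28 ± 1.76 CPM in Isl1_het, 13.0 ± 2.82 CPM in Nipbl_het and 4.80 to 15.1 CPM in double_het. Against wild-type, its log2 change was -0.20 in Isl1_het (adjusted p 0.877 by edgeR), 0.79 in Nipbl_het (adjusted p 0.0252) and 0.32 in double_het (adjusted p 0.591), so the level of Isl1 does not check the Isl1 +/- labels, and double_het lay above wild-type in the fit. Markers of the cardiomyocytes that make up most of the heart were present in all libraries, with a summed level of 20975 to 32073 CPM over 8 genes. Liver markers were high in 1 library only, Nipbl_het replicate 9, with 376 CPM summed over 7 genes against at most 21.2 CPM in each wild-type, Isl1_het or double_het library. The defining liver gene Alb had a count of 0 in 21 of 37.

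Promoters are shown for the pairs whose levels moved together most closely across libraries (Sema3d with Lrrn4, and Tbx18 with Tcf21) and also for Upk3b, which had the lowest adjusted p-value among the markers for loss of an Isl1 allele. RefSeq (GRCm38.p6) gave the bases before the start for 6 of the 10 genes, these 5 and Bnc1. The stretches printed 5' to 3' on the gene's strand lie at chr5:12382916-12383165 (+) for Sema3d, chr2:132880892-132881112 (-) for Lrrn4, chr9:87731261-87731510 (-) for Tbx18, chr10:22820175-22820393 (-) for Tcf21 and chr5:136038246-136038495 (+) for Upk3b. For Lrrn4 and Tcf21 they stop where the GENCODE gene begins. Capitals mark the letters GGAATG or their reverse complement CATTCC, the core of sites bound by TEAD factors.
Sema3d: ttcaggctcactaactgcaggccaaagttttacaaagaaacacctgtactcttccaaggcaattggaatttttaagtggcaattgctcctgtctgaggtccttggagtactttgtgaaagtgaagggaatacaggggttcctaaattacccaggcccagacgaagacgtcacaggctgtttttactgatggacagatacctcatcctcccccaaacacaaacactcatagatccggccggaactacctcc
Lrrn4: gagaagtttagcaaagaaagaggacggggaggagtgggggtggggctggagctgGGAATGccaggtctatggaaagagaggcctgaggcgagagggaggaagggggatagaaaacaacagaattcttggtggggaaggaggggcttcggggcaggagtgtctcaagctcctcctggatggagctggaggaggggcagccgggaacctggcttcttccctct
Tbx18: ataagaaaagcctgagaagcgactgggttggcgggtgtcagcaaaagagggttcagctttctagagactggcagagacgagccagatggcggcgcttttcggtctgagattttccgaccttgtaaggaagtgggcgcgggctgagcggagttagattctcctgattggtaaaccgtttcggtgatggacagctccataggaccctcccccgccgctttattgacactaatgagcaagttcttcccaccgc
Tcf21: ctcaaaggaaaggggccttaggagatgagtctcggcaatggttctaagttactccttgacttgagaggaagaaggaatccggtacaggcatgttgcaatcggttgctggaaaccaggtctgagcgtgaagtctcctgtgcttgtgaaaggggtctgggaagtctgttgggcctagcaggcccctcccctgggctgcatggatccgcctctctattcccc
Upk3b: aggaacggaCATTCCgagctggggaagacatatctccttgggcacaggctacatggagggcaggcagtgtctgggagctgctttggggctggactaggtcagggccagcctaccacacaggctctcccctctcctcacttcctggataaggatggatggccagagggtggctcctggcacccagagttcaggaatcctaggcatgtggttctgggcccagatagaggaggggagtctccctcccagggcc
Within the 250 bases before the start, GGAATG was found on the gene's strand in Lrrn4 and as CATTCC in Upk3b, and in 12.6% of 27025 RefSeq promoters of this length. The GATA core AGATAA was found once, in Tcf21, inside its transcribed stretch and therefore not printed, and in 10.3% of promoters. No match on either strand was found in the 6 promoters for GGTGTGA (T-box, 3.31% of promoters), GTGGGAG (WT1-like, 7.99%) or CAGCTG (E-box, 12.8%). The promoter of Bnc1 held 83.6% G and C and 39 CpG pairs, against a median of 52% and 6 over all promoters. The other 5 ranged from 46.8% (Sema3d) to 60.8% (Upk3b) in G and C. No motif match says anything of binding at these sites.

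Per kilobase of exon, the markers spanned a wide range in wild-type hearts. Krt19 (56.9 ± 19.4 CPM per kilobase, n = 10) and Upk3b (41.1 ± 11.1) were highest, followed by Upk1b (24.1 ± 4.37), Tcf21 (21.5 ± 5.29) and Tbx18 (13.6 ± 1.60). Lrrn4 (10.3 ± 2.30), Wt1 (7.68 ± 0.741), Bnc1 (2.86 ± 0.731), Sema3d (1.81 ± 0.602) and Msln (0.375 ± 0.104) were lower. In this order the mean ± SD ranges of Krt19 and Upk3b, Upk1b and Tcf21, Tbx18 and Lrrn4, Lrrn4 and Wt1, and Bnc1 and Sema3d overlapped, and the other neighbours were apart. In Isl1_het, Upk3b (53.7 ± 12.2 CPM per kilobase, n = 9) stood above Krt19 (46.1 ± 9.39), and the order of the other 8 was that of wild-type in all 4 genotypes. Msln, a surface glycoprotein of mature mesothelium, had only 19 to 109 counts per library.

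All 10 markers had a higher fitted level in double_het than in wild-type hearts, and 7 passed the test. The 7 were Wt1, Tbx18, Upk3b, Upk1b, Sema3d, Lrrn4 and Bnc1, with log2 changes from 0.38 to 0.73. Loss of 1 Nipbl allele alone gave 1 of 10 (Wt1), and loss of 1 Isl1 allele alone gave none. Changes are log2 fold changes from edgeR's quasi-likelihood test, fitted with terms for genotype and for set, and adjusted p-values are Benjamini-Hochberg values over all 15046 genes. Over all genes, 1.77% passed as higher in double_het, 1.20% in Nipbl_het and 0% in Isl1_het, each against wild-type. In Isl1_het, 0 genes passed by edgeR and 11 by DESeq2, none of them a marker, while 3 markers (Upk3b, Sema3d and Bnc1, all higher) had an unadjusted p under 0.05, as did 5.89% of all genes (3.31% as higher). The median log2 change of the 10 markers was 0.54 in double_het, 0.27 in Nipbl_het and 0.14 in Isl1_het, against -0.0019, 0.0080 and -0.0034 over all genes tested. These 3 comparisons share their wild-type libraries.

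**Figure D1:**
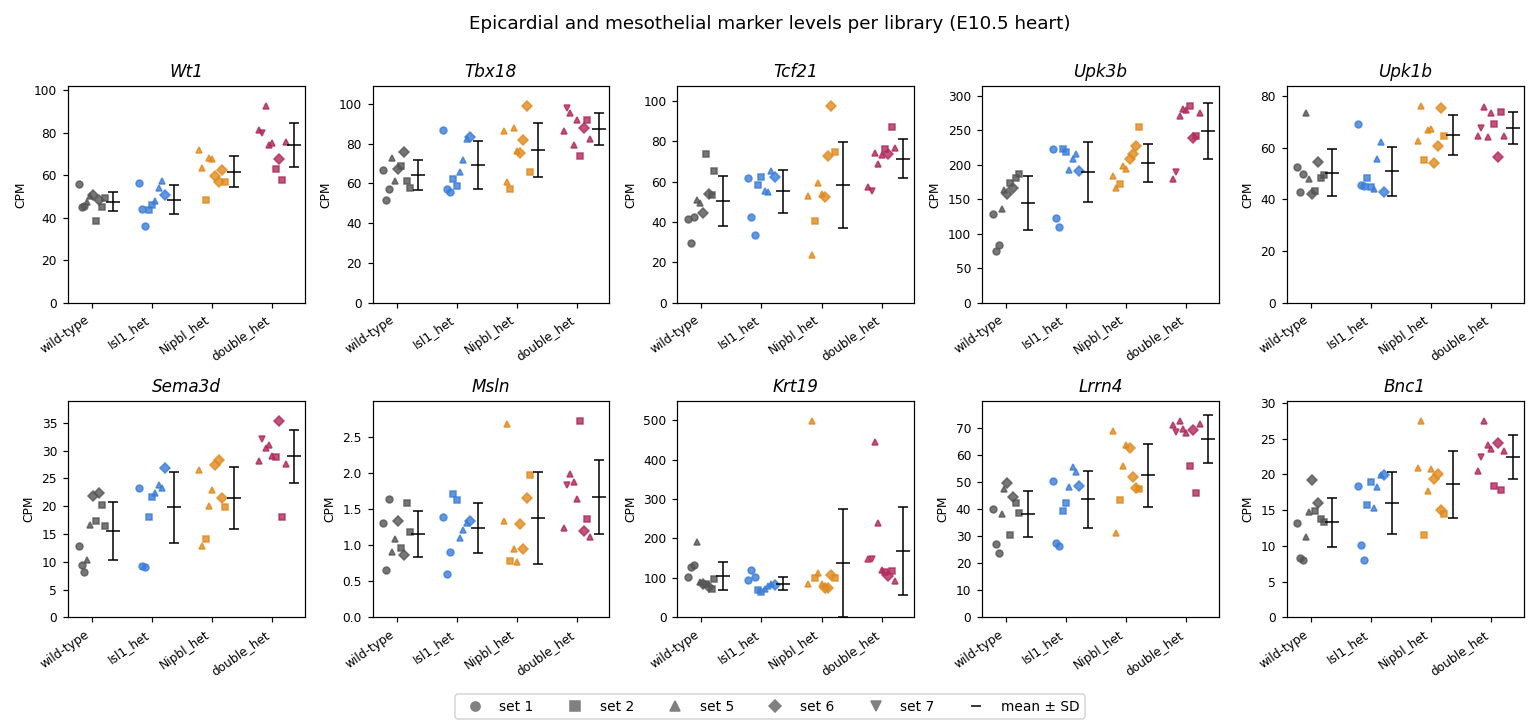
Level of each marker in CPM (vertical axes, from 0, scaled per gene) in the 37 libraries by genotype; each point is 1 library, its shape gives the set, and the bar beside each group is the mean ± SD. All 9 double_het libraries of Wt1 (57.7 to 92.6 CPM) lie above all 10 wild-type libraries (38.5 to 55.9 CPM), and Krt19 has single libraries far above the rest (498 CPM in Nipbl_het replicate 2 and 444 CPM in double_het replicate 3).

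Among the transcription factors, Wt1 had the lowest adjusted p-value in double_het and in Nipbl_het against wild-type, but not in Isl1_het. Wt1 (chr2:105126529-105173616, GRCm38, protein-coding) encodes a zinc-finger factor needed for a normal epicardium. Its lowest, median and highest library had 38.5, 47.9 and 55.9 CPM in wild-type, 36.2, 48.1 and 57.5 CPM in Isl1_het, 48.5, 62.5 and 72.1 CPM in Nipbl_het, and 57.7, 75.3 and 92.6 CPM in double_het. The 9 double_het libraries overlapped neither the wild-type nor the Isl1_het libraries, and 8 of 9 Nipbl_het libraries lay above all wild-type libraries. Of the 10 markers, Wt1 alone was free of overlap in these 2 comparisons, which held for 0.326% of all genes against wild-type and 0.186% against Isl1_het. The log2 change of Wt1 was 0.53 in double_het (SE 0.08, adjusted p 6.05e-05 by edgeR), 0.31 in Nipbl_het (SE 0.07, adjusted p 0.0178) and -0.0056 in Isl1_het (95% interval -0.14 to 0.13). Within sets 2, 5 and 6, the double_het mean of Wt1 exceeded the wild-type mean by 0.45, 0.70 and 0.45 on the log2 scale. Set 6 held 1 double_het library. The Nipbl_het call of Wt1 was lost in 3 of the 37 fits without 1 library, those without Nipbl_het replicate 9, the library with liver transcripts (log2 change 0.29, adjusted p 0.0515), and without wild-type replicate 4 or 5 (adjusted p 0.0505 and 0.0507). It was also lost in 3 of 13 other settings, without set 2, 5 or 6 (adjusted p 0.137, 0.227 and 0.0875), with the value positive in each, and was kept without Nipbl_het replicate 2 (0.31, adjusted p 0.0116).

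Tbx18 (chr9:87702800-87731260) encodes a T-box factor made in the proepicardium and epicardium. Its libraries ran from 51.6 over a median of 64.0 to 75.8 CPM in wild-type, 55.7 over 65.6 to 86.6 CPM in Isl1_het, 57.3 over 76.4 to 98.9 CPM in Nipbl_het and 73.6 over 87.7 to 97.9 CPM in double_het. All double_het libraries but 1 lay above every wild-type library, and the Nipbl_het libraries overlapped both ranges. Tbx18 was 0.38 higher on the log2 scale in double_het than in wild-type (SE 0.09, adjusted p 0.0186 by edgeR), with 0.17 in Nipbl_het (adjusted p 0.356) and 0.11 in Isl1_het (adjusted p 0.853). Tcf21 (chr10:22817281-22820174), a basic helix-loop-helix factor needed for cardiac fibroblasts from the epicardium, varied more. It ranged from 29.8 to 73.7 CPM in wild-type, 33.5 to 65.2 CPM in Isl1_het, 23.4 to 97.5 CPM in Nipbl_het and 55.6 to 87.2 CPM in double_het. Its log2 change of 0.51 in double_het (SE 0.16, adjusted p 0.104) did not pass, and did pass (0.47, adjusted p 0.0292) without Nipbl_het replicate 2, which held its lowest level. Bnc1 (chr7:81966672-81992292), a zinc-finger factor of mesothelial and other epithelial cells, had median levels of 13.5, 18.3, 19.3 and 23.3 CPM in wild-type, Isl1_het, Nipbl_het and double_het. Its double_het libraries (17.8 to 27.4 CPM) overlapped the wild-type range (7.98 to 19.2 CPM) in 2 of 9, and its log2 change of 0.55 (SE 0.14) passed with an adjusted p of 0.0293 by edgeR.

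Among the surface proteins, Upk3b had the largest log2 change in double_het. Upk3b (chr5:136038496-136046487) encodes a uroplakin of mesothelial cells. Its lowest, median and highest library had 75.1, 161 and 187 CPM in wild-type, 110, 209 and 223 CPM in Isl1_het, 166, 199 and 255 CPM in Nipbl_het and 180, 270 and 285 CPM in double_het. In Isl1_het, 7 of 9 libraries lay above every wild-type library and the other 2, both of set 1, lay below every wild-type library outside set 1. The log2 change of Upk3b in double_het was 0.72 (SE 0.12, adjusted p 5.03e-04 by edgeR). In Isl1_het it was 0.45 (SE 0.11, unadjusted p 2.87e-04, adjusted p 0.306 by edgeR), and in Nipbl_het 0.36 (SE 0.12, adjusted p 0.111). Within sets, the Isl1_het mean of Upk3b exceeded the wild-type mean by 0.63 (set 1), 0.29 (set 2), 0.47 (set 5) and 0.24 (set 6). The double_het mean exceeded it by 0.54, 0.77 and 0.56 in sets 2, 5 and 6. Set 6 held 1 Isl1_het and 1 double_het library.

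Upk1b (chr16:38773184-38800328) encodes a tetraspanin that pairs with uroplakins and differed from Upk3b in its pattern. Its lowest, median and highest library had 42.1, 48.8 and 73.6 CPM in wild-type, 42.6, 45.5 and 69.3 CPM in Isl1_het, 54.0, 64.7 and 76.1 CPM in Nipbl_het and 56.3, 67.4 and 75.6 CPM in double_het. Of the 9 double_het libraries, all 9 lay above the wild-type mean and 2 above every wild-type library. The highest wild-type library, replicate 4, stood apart from the next at 54.2 CPM. Upk1b had a log2 change of 0.38 in double_het (SE 0.10, adjusted p 0.0310 by edgeR), 0.35 in Nipbl_het (SE 0.10, adjusted p 0.0510) and -0.01 in Isl1_het (95% interval -0.20 to 0.18). The double_het call of Upk1b was lost in 15 of the 37 fits without 1 library (adjusted p up to 0.108) and in 5 of 13 other settings (up to 0.483), with the value positive in each.

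Lrrn4 (chr2:132868305-132880891), a leucine-rich repeat membrane protein, had median levels of 39.4, 48.1, 51.7 and 69.3 CPM in wild-type, Isl1_het, Nipbl_het and double_het, and 8 of 9 double_het libraries lay above every wild-type library. Its log2 change in double_het was 0.59 (SE 0.13, adjusted p 0.00740 by edgeR). Sema3d (chr5:12383385-12588948), a secreted guidance ligand of the semaphorin family found in proepicardium and epicardium, had median levels of 16.5, 22.4, 21.4 and 29.1 CPM. Again 8 of 9 double_het libraries lay above every wild-type library, and the 1 that did not, replicate 8, had 18.1 CPM. The log2 change of Sema3d was 0.73 in double_het (SE 0.17, adjusted p 0.0109 by edgeR), 0.40 in Isl1_het (adjusted p 0.745) and 0.23 in Nipbl_het (adjusted p 0.511).

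With all libraries in the fit and set as a term, Krt19 and Msln did not pass in any comparison. Krt19 (chr11:100140810-100148665), a keratin of simple epithelia, ranged from 71.3 to 190 CPM in wild-type, 63.8 to 120 CPM in Isl1_het, 74.0 to 498 CPM in Nipbl_het and 91.4 to 444 CPM in double_het. Single libraries of Krt19 lay far above the rest, since Nipbl_het replicate 2 and double_het replicate 3 held 498 and 444 CPM against group medians of 101 and 119 CPM. The fitted log2 change of Krt19 was 0.56 in double_het (SE 0.30, adjusted p 0.481 by edgeR), 0.36 in Nipbl_het (-0.0509 without replicate 2) and -0.39 in Isl1_het. Without Nipbl_het replicate 2, Krt19 did pass in double_het against Isl1_het (1.03, adjusted p 0.00836 by edgeR). Msln (chr17:25748613-25754378), the mesothelin gene, had 0.60 to 2.72 CPM over all libraries and a log2 change of 0.47 in double_het (SE 0.25, adjusted p 0.488).

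**Figure D2:**
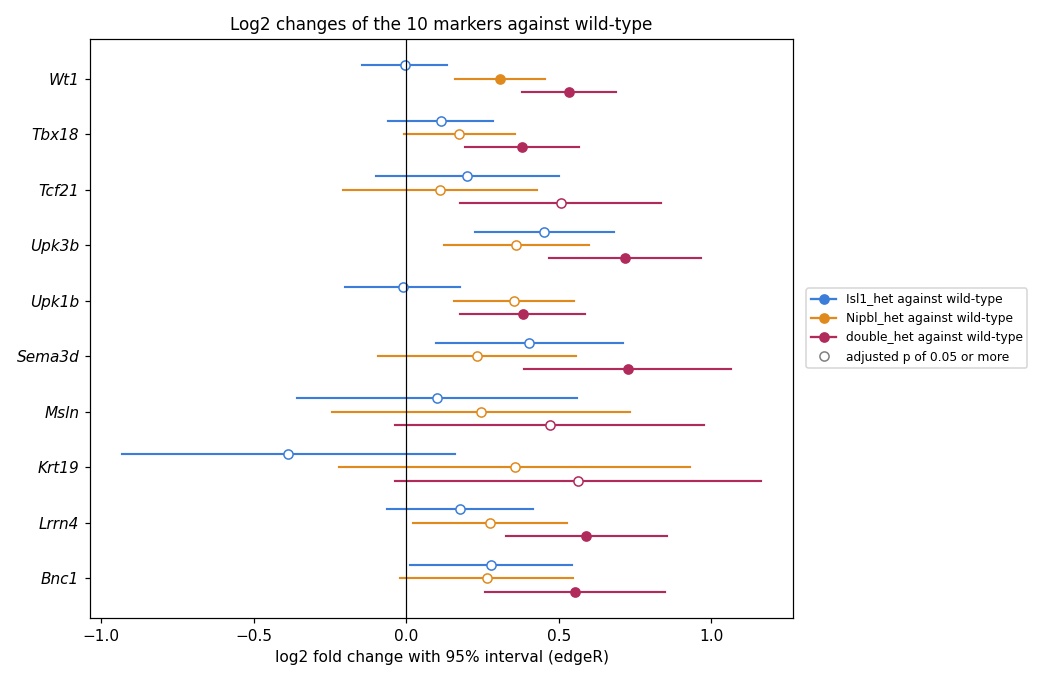
Log2 fold change of each marker against wild-type from edgeR (horizontal axis) with its 95% interval (lines) in Isl1_het, Nipbl_het and double_het; filled points have an adjusted p-value under 0.05 over all genes. The double_het value is the highest of the 3 for each of the 10 markers, with 7 filled points, and Wt1 is the filled point of Nipbl_het.

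Sets could be checked one by one for double_het against wild-type. Sets 2, 5 and 6 held 3, 2 and 2 wild-type, 2, 3 and 1 Isl1_het, 2, 4 and 3 Nipbl_het and 2, 5 and 1 double_het libraries. In set 6, the differences of double_het therefore rest on 1 double_het library, set against 2 wild-type libraries or 1 Isl1_het library. The 10 markers of a set share its libraries. In sets 2, 5 and 6, the mean log2 CPM of double_het exceeded that of wild-type for each of the 10 markers in each set, in 30 of 30 differences from 0.15 to 1.16. Over all genes tested, 21.1% had a higher double_het mean in all 3 sets. For Nipbl_het against wild-type, 25 of the 30 differences were positive and 6 of 10 markers were higher in all 3 sets, against 12.8% of all genes. Without Nipbl_het replicate 2, these were 24 of 30 and 4 of 10, against 13.3%. For double_het against Isl1_het, 29 of 30 differences were positive and 9 of 10 markers were higher in all 3 sets, against 13.8% of all genes. The count of calls in double_het fell when a set was left out. Without set 5, which holds 5 of the 9 double_het libraries, 0 of 10 markers passed (67 of 15208 genes did), with all 10 log2 changes positive, Wt1 at 0.43 (adjusted p 0.106) and Upk3b at 0.62 (adjusted p 0.215) by edgeR. Without set 6, 2 passed, without set 2, 3 passed, and without wild-type replicate 5, 4 passed. Without Nipbl_het replicate 2, 8 of 10 passed, with the share of all genes in that fit not given. Among the 37 fits without 1 library, the call was lost in 6 for Bnc1 and 2 for Tbx18, and in none for Wt1, Upk3b, Lrrn4 and Sema3d.

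The markers also differed between sets. Set number was associated with 8 of 10 markers in the same fit (adjusted p from 0.00154 for Upk3b to 0.0449 for Krt19 by edgeR), and Upk1b (adjusted p 0.334) and Msln (0.642) did not pass. Over all genes, 38.2% passed this test. In wild-type hearts, Upk3b averaged 95.7 CPM in set 1 (75.1 to 129 CPM, n = 3), 180 CPM in set 2, 149 CPM in set 5 and 162 CPM in set 6. Sema3d followed with 10.1 CPM in set 1, 18.0 CPM in set 2, 13.5 CPM in set 5 and 22.1 CPM in set 6, so the set 1 means were lowest for both. In Isl1_het, the set 1 libraries themselves were split, with 223, 122 and 110 CPM of Upk3b and 23.3, 9.29 and 9.02 CPM of Sema3d in replicates 1, 2 and 3. Beyond the letters IVF before it, what the set number marks is not given, and its part in these differences was not tested beyond the set term.

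Loss of a Nipbl allele was compared on the Isl1_het background by setting double_het against Isl1_het. All 10 markers had positive log2 changes (median 0.35, over all genes 0.0029), and 1 passed, against 0.532% of all genes that passed as higher. This was Wt1, with 0.54 (SE 0.08, adjusted p 9.53e-05 by edgeR), and Upk1b followed with 0.39 (SE 0.10, adjusted p 0.0568). Krt19 had the largest value, 0.95, with an SE of 0.31 and an adjusted p of 0.186. Without set 5, Wt1 did not pass (0.45, adjusted p 0.196 by edgeR). Without Nipbl_het replicate 2, which informs only the shared spread and the set terms here, Wt1, Krt19, Lrrn4 and Upk1b passed. The share of all genes that passed in that fit is not given, so the rise is not read as particular to the markers. Other lists moved too. Liver genes were positive in 3 of 4 (median 0.78), foregut genes in 3 of 3 (0.71) and septum transversum and urogenital genes in 5 of 6 (0.35). Epicardium-derived mesenchyme, a list that includes Tcf21, was positive in 2 of 9 (-0.11). No gene of these lists passed, and the part of the lists was not tested.

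Loss of an Isl1 allele was compared on the Nipbl_het background by setting double_het against Nipbl_het. No marker passed, nor did any gene by edgeR or DESeq2. An unadjusted p under 0.05 was found for 7 of 10 markers, all as higher, and for 1355 genes (9.01%, 3.44% as higher). Without Nipbl_het replicate 2, no marker passed by edgeR. Wt1, Upk3b, Sema3d, Bnc1, Krt19 and Msln then had an unadjusted p under 0.05, with the share of all genes in that fit not given. All 10 markers had positive log2 changes with a median of 0.26. The erythroid list moved with them, with 6 of 6 genes positive, all 6 at an unadjusted p under 0.05 and a median of 1.53. Its part in the markers' values was not tested beyond the erythroid covariate, with which 0 markers passed and 9 were positive. Foregut genes were positive in 3 of 3 (median 0.85), endocardial genes in 6 of 6 (0.19) and epicardium-derived mesenchyme in 8 of 9 (0.11). Liver genes were positive in 0 of 4 (-0.93) and pharyngeal genes in 0 of 6 (-0.11). The part of these lists was not tested. Sema3d (0.50, 95% interval 0.17 to 0.82), Upk3b (0.36, 0.11 to 0.60) and Wt1 (0.23, 0.08 to 0.37) had intervals above 0 and an adjusted p of 0.413 each, and Upk1b was at 0.03 (-0.17 to 0.23). Krt19 was at 0.21, and at -0.0685 without double_het replicate 3 and 0.71 without Nipbl_het replicate 2.

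An interaction term compared the log2 change of double_het with the Nipbl_het and Isl1_het changes added up. No marker passed by edgeR or DESeq2, nor did any gene, with 411 genes (2.73%) and 1 marker at an unadjusted p under 0.05. That marker was Wt1, with an interaction of 0.23 (95% interval 0.03 to 0.43, unadjusted p 0.0251, adjusted p 0.999 by edgeR), and 0.731% of all genes had an unadjusted p under 0.05 with a positive value. The intervals of Upk3b (-0.42 to 0.23), Sema3d (-0.35 to 0.53) and Upk1b (-0.23 to 0.31) spanned 0. Without Nipbl_het replicate 2, Krt19 had the largest interaction of the 10 markers, 1.08 (unadjusted p 9.27e-04), and Wt1 had 0.22 (unadjusted p 0.0282), each with an adjusted p of 1.00 by edgeR.

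Averaged over both Isl1 genotypes, loss of a Nipbl allele raised 4 of 10 markers, against 2.67% of all genes that passed as higher. These were Wt1 (log2 change 0.42, SE 0.06, adjusted p 8.28e-06), Upk1b (0.37, SE 0.07, adjusted p 0.00196), Lrrn4 (0.34, SE 0.10, adjusted p 0.0318) and Upk3b (0.31, SE 0.09, adjusted p 0.0419), all by edgeR. Averaged over both Nipbl genotypes, loss of an Isl1 allele raised 1 of 10, Upk3b (0.40, SE 0.08, adjusted p 0.0260), against 0.146% of all genes. Sema3d (0.45, SE 0.11, adjusted p 0.0784) and Bnc1 (0.28, adjusted p 0.251) had positive values that did not pass, and Upk1b was at 0.01 (95% interval -0.13 to 0.15). Other lists moved with this comparison. The erythroid list had positive values in 6 of 6 genes (median 1.04, all 6 at an unadjusted p under 0.05). Epicardium-derived mesenchyme was positive in 9 of 9 (median 0.22, 6 at an unadjusted p under 0.05). Endocardium was positive in 6 of 6 (median 0.17, 3 at an unadjusted p under 0.05). No gene of these lists passed the adjusted test, and the markers' median was 0.20. With the erythroid level as a covariate, 0 of 10 markers passed. Upk3b did not, and over the 13 other settings, this one included, its log2 change ran from 0.33 to 0.45. The part of the lists was not tested beyond this covariate. Without Nipbl_het replicate 2, 5 markers passed for Nipbl (with Tbx18, adjusted p 0.0200) and Upk3b for Isl1 (adjusted p 0.0343). The share of all genes in that fit is not given. Other cell types moved with Nipbl loss, and their part was not tested beyond the erythroid covariate. Erythroid genes were positive in 0 of 6 (median -0.37), and also in 0 of 6 in Nipbl_het against wild-type (-0.84). None of these had an unadjusted p under 0.05. Epicardium-derived mesenchyme was positive in 3 of 9 (-0.12) and cardiomyocyte genes in 2 of 8 (-0.09). Liver genes had positive values in 4 of 4 (median 1.26, none past the adjusted test). Of 6 pharyngeal mesenchyme genes, 5 were positive (median 0.50) and Tbx1 rose (1.07, adjusted p 0.0143 by edgeR), as it did in Nipbl_het against wild-type (1.38, adjusted p 0.0322, list median 0.68). Of 6 septum transversum and urogenital genes, 5 were positive (median 0.38), with 3 at an unadjusted p under 0.05 and none past the adjusted test. The median of the 10 markers was 0.31. Without Nipbl_het replicate 9, the library with liver transcripts, Wt1 and Upk1b passed for Nipbl. Lrrn4 (log2 change 0.33, adjusted p 0.0557 by edgeR) and Upk3b (0.29, adjusted p 0.0863) did not, with values near those of the full fit.

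The difference between the 2 averaged effects was tested directly, as Nipbl_het against Isl1_het, a comparison added after these values were seen. The effect of Nipbl loss exceeded that of Isl1 loss for Wt1 by 0.31 on the log2 scale (95% interval 0.16 to 0.46, adjusted p 0.0189 by edgeR), the only marker to pass, against 0.990% of all genes that passed in this direction. For Upk1b the difference was 0.37 (0.16 to 0.57, adjusted p 0.0569). For Upk3b (-0.09, 95% interval -0.34 to 0.16) and Sema3d (-0.17, -0.50 to 0.16) the interval spanned 0. Other cell types moved with this comparison, with 6 of 6 erythroid genes at an unadjusted p under 0.05 (median -1.44) and 4 of 4 liver genes positive (median 1.54). Of 9 genes of epicardium-derived mesenchyme, 8 were negative (median -0.29), 4 had an unadjusted p under 0.05 and Col1a1 passed as lower (-0.97, adjusted p 0.00434 by edgeR). Of 6 pharyngeal genes, 2 had an unadjusted p under 0.05 (median 0.47), as did 2 of 6 septum transversum and urogenital genes (median 0.33). The part of these lists was not tested beyond the fits named here. With the erythroid covariate, 2 markers passed, and without Nipbl_het replicate 9 Wt1 passed at 0.30 (adjusted p 0.0476). Without Nipbl_het replicate 2, Wt1 passed at 0.33 (adjusted p 0.00870 by edgeR) and Upk1b was at 0.36 (adjusted p 0.0597). The Wt1 difference was lost in 4 of 13 other settings, with the block of title numbers (adjusted p 0.0718) and without set 2, 5 or 6 (0.0917, 0.181 and 0.0777). The averaged calls of Upk3b were less stable. Among the 37 fits without 1 library, its Nipbl call was lost in 21 (adjusted p up to 0.0914) and its Isl1 call in 12 (up to 0.0687). In 13 other settings these were lost in 4 and 7. The averaged Nipbl call of Lrrn4 was lost in 7 of the 37 fits (adjusted p up to 0.0676) and in 3 of the 13 settings (up to 0.241).

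**Figure D3:**
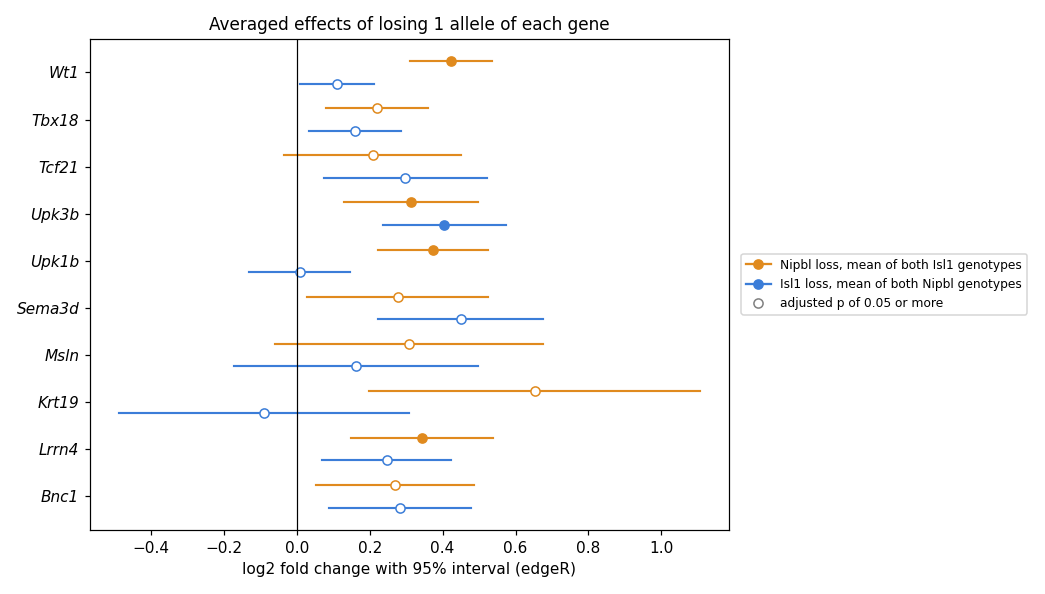
Log2 change of each marker (horizontal axis) with its 95% interval for loss of 1 Nipbl allele, averaged over both Isl1 genotypes, and for loss of 1 Isl1 allele, averaged over both Nipbl genotypes; filled points have an adjusted p-value under 0.05 over all genes by edgeR. Wt1, Upk1b, Lrrn4 and Upk3b are filled for Nipbl and Upk3b for Isl1, and the intervals of Upk1b for the 2 effects (0.22 to 0.53 and -0.13 to 0.15) do not overlap.

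Libraries of one genotype still differed in the markers, and some pairs of markers moved together. Residual log2 CPM, with genotype and set number removed, was correlated over the 36 libraries outside set 7. Of the 45 pairs of markers, 37 had a positive Pearson's r, 22 positive and 2 negative pairs had an adjusted permutation p under 0.05 (over the 45 pairs), and the median r was 0.36. Over all pairs of tested genes the median was -5.00e-04 with quartiles of -0.29 and 0.29. An r above 0.5 was found in 13 of the 45 pairs and in 12.2% of all gene pairs. How many of all gene pairs would pass the permutation test, here or in the subsets below, was not computed. The points share library depth and the composition of each heart.

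Sema3d and Lrrn4 formed the closest pair, with r = 0.85 (Spearman's rho = 0.75, adjusted permutation p 1.12e-04 for r and 1.50e-04 for rho, the smallest the 100000 resamples can give after adjustment). Without the 2 libraries farthest from the median of Sema3d the r was 0.83, within sets 1, 2, 5 and 6 it was 0.97, 0.59, 0.86 and 0.58, and within wild-type, Isl1_het, Nipbl_het and double_het 0.71, 0.98, 0.86 and 0.91. Tbx18 and Tcf21, both transcription factors, followed with r = 0.74 (rho = 0.68, adjusted permutation p 1.12e-04) and 0.68 without the 2 farthest libraries. Within the sets their r was 0.90, 0.65, 0.70 and 0.84, and within the genotypes 0.67, 0.86, 0.87 and 0.43. Upk3b and Sema3d (r = 0.68, rho = 0.64, adjusted permutation p 1.12e-04) and Tcf21 and Upk3b (r = 0.61, rho = 0.64, adjusted permutation p 9.45e-04) were also positive in every set and genotype. In Upk3b and Sema3d, r fell to 0.01 in set 6.

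**Figure D4:**
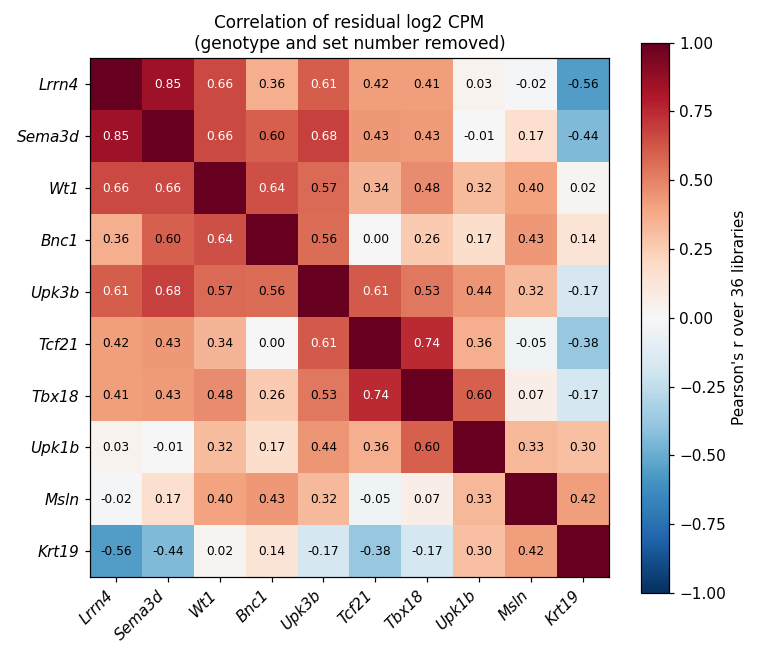
Pearson's r (colour and printed value) between the residual log2 CPM of each pair of markers over 36 libraries, after removal of genotype and set number. Lrrn4 and Sema3d (0.85) and Tcf21 and Tbx18 (0.74) have the highest values, and Krt19 is negative with Lrrn4 (-0.56) and Sema3d (-0.44).

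Wt1 was correlated with Lrrn4 (r = 0.66, rho = 0.72, adjusted permutation p 5.25e-04), Sema3d (r = 0.66, rho = 0.54, adjusted permutation p 1.12e-04) and Bnc1 (r = 0.64, rho = 0.55, adjusted permutation p 4.50e-04). Without the 2 libraries farthest from the median of Wt1 these values were 0.57, 0.53 and 0.49. They were positive within each genotype and in sets 1, 2 and 5, and negative in set 6 (-0.13 with Lrrn4, -0.69 with Sema3d and -0.15 with Bnc1, n = 7). Among the 12079 tested genes whose mean log2 CPM reached 1, Lrrn4, Sema3d, Bnc1 and Upk3b ranked 5, 6, 9 and 14 by likeness to Wt1. Tbx18, Tcf21, Upk1b and Krt19 ranked 58, 330, 412 and 5674. The first 3 genes were Stk26 (r = 0.74), Prokr2 (0.72) and Ildr2 (0.70). Other markers had markers farther off. By likeness to Tcf21, the closest marker was Tbx18 at rank 129, and Wt1 ranked 3689. Sema3d was most like Lrrn4, Tcf21 and Tbx18 were each most like Apela (0.90 and 0.81), Upk3b was most like B3gnt9 (0.90), Lrrn4 most like Plekhh2 (0.91), Bnc1 most like Crim1 (0.83) and Krt19 most like Cox4i2 (0.94).

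Krt19 had a negative r with 5 markers (Lrrn4, Sema3d, Tcf21, Tbx18 and Upk3b), of which 2 passed, and a positive r of 0.42 with Msln that passed (adjusted permutation p 0.0225) and was 0.16 without Nipbl_het replicate 2. Its r was -0.56 with Lrrn4 (rho = -0.47, adjusted permutation p 0.00337) and -0.44 with Sema3d (rho = -0.47, adjusted permutation p 0.0216). Without Nipbl_het replicate 2, the library at odds with its label, these were -0.27 and -0.30 and no negative pair passed, while 21 positive pairs did. Without the 2 libraries farthest in Krt19 its r with Lrrn4 was -0.45, on residuals of the fit with all libraries. The same library held the lowest Lrrn4 (31.2 CPM), Sema3d (12.9 CPM), Tcf21 (23.4 CPM) and Upk3b (166 CPM) of the Nipbl_het group and its highest Krt19 (498 CPM), Msln (2.68 CPM), Upk1b (76.1 CPM) and Bnc1 (27.5 CPM).

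**Figure D5:**
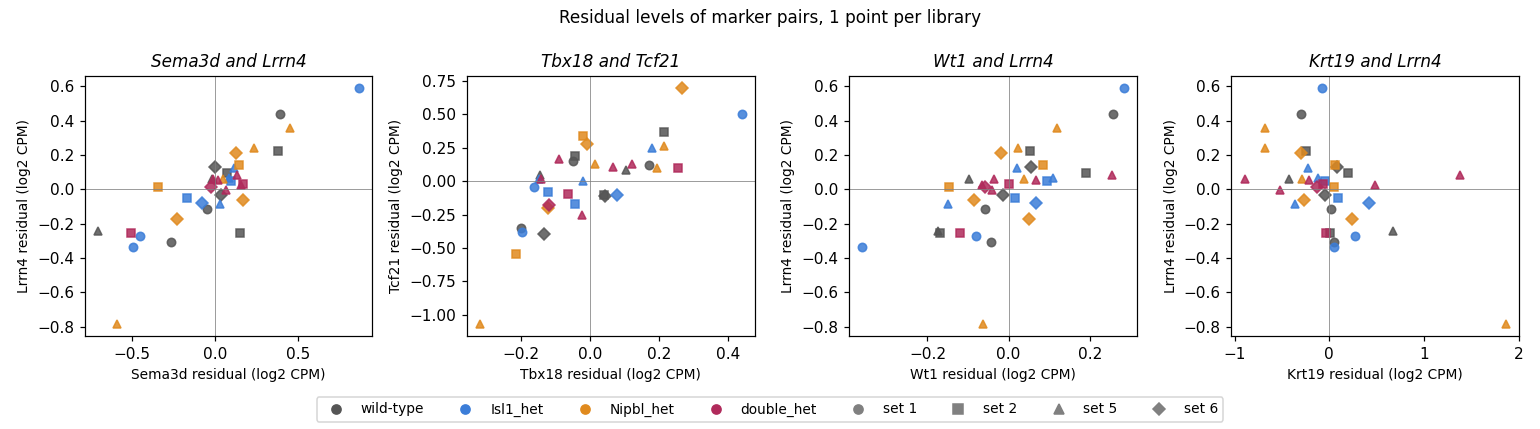
Residual log2 CPM (genotype and set number removed) of 4 pairs of markers, 1 point per library (36 libraries), coloured by genotype and shaped by set. Sema3d and Lrrn4 (r = 0.85) and Tbx18 and Tcf21 (r = 0.74) rise together, and in the panel of Krt19 and Lrrn4 (r = -0.56) Nipbl_het replicate 2 is the point at lower right.

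The strength of the correlation differed between genotypes and sets by description. The median r of the 45 pairs was 0.16 in wild-type (n = 10), 0.80 in Isl1_het (n = 9), 0.28 in Nipbl_het (n = 9) and 0.28 in double_het (n = 8), against 0 to 5.00e-04 over all gene pairs. An r above 0.5 was found in 12, 35, 15 and 12 of the 45 pairs, against 16.1%, 13.3%, 24.9% and 16.7% of all gene pairs. Without replicate 2, the Nipbl_het median was 0.30 with 17 of 45 pairs above 0.5, against 20.1% of all gene pairs. These values kept the residuals of the fit with all libraries, so they are not free of that library. By exact permutation tests, or 100000 resamples in wild-type, 2, 8, 4 and 0 pairs passed after adjustment over the 180 pairs and genotypes. All were positive except 2 of the 4 in Nipbl_het, Krt19 with Sema3d (r = -0.87) and with Lrrn4 (r = -0.95). With Nipbl_het replicate 2 dropped from the same residuals, these were -0.81 and -0.78. That library had a part in the fit behind the residuals of the others, so its part in these values is not removed. The values over all genotypes from a fit without it, given above, were weaker. Whether the genotypes differ in this was not tested.

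The highest values were in set 1. Within set 1 (3 wild-type and 3 Isl1_het libraries) the median r was 0.82, and it was 0.23, 0.15 and -0.01 in sets 2, 5 and 6 (n = 9, 14 and 7), where 0, 3 and 0 positive pairs passed. Without set 1, in an analysis added after this was seen, 7 positive and 3 negative pairs passed over 30 libraries and the median r was 0.18. The pairs Sema3d and Lrrn4 (0.76), Tbx18 and Tcf21 (0.72), Tcf21 and Upk3b (0.60) and Wt1 and Lrrn4 (0.48) were among the 7, and Wt1 and Bnc1 (0.37, adjusted permutation p 0.123) was not. Above 0.5 were then 4 of 45 pairs, against 14.0% of all gene pairs. The median r of Isl1_het without set 1 was 0.41 (n = 6) and that of wild-type -0.06 (n = 7).

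Other epicardial and mesothelial genes, a list of 18 of which 16 passed the filter, showed the same direction in double_het. Against wild-type, 5 rose, 15 of 16 had positive values and the median log2 change was 0.39. Over all genes tested, 1.77% rose, 49.5% had positive values and the median was -0.0019. The 5 were Krt7 (0.98, adjusted p 3.82e-04), a simple-epithelium keratin, Pdpn (0.35, adjusted p 0.00162), the mesothelial glycoprotein podoplanin, and Itga4 (0.57, adjusted p 0.0260), the integrin subunit that binds Vcam1 when epicardial cells attach to the heart. Kcne1l (0.79, adjusted p 0.0263) and Rspo1 (0.60, adjusted p 0.0387), a secreted Wnt co-activator, were the others, all by edgeR. Pdpn also passed in Nipbl_het (0.33, adjusted p 0.00353), and Pdpn and Krt7 passed in double_het against Isl1_het (0.36 and 0.68, adjusted p 0.00291 and 0.0404). None of the 16 passed in Isl1_het. The mean residual of the 16 had an r of 0.70 with the mean residual of the 10 markers over 36 libraries. The same r was -0.41 for cardiomyocyte genes, 0.33 for erythroid genes and between -0.19 and 0.17 for the other lists. Single markers departed from these means. Upk3b had the highest r with the mean of the 16 (0.72) and Krt19 the lowest (-0.01). Lrrn4 and Sema3d had a higher r with the genes of proepicardium formation and attachment (0.64 and 0.55) than with the 16 (0.45 and 0.40). With endocardial genes, r was 0.51 for Lrrn4, -0.48 for Krt19 and -0.54 for Upk1b, and with cardiomyocyte genes it was lowest for Bnc1 (-0.57).

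Lists of other cell types that a heart sample could hold were read beside these. Of 11 genes of proepicardium formation and attachment, Itga4 alone rose in double_het, with a median of 0.02. Of 9 genes of epicardium-derived mesenchyme, Pdgfra rose (0.43, adjusted p 0.0483 by edgeR), with a median of 0.08. This list of 9 shares Tcf21 with the 10 markers. Averaged over Isl1 genotypes, Nipbl loss went with lower Col1a1 (-0.65, adjusted p 0.00449 by edgeR), the main fibrillar collagen. None of 8 cardiomyocyte genes passed in double_het by edgeR, with 7 lower, 3 at an unadjusted p under 0.05 and a median of -0.13. None of 6 endocardial genes passed either, with 6 higher, 2 at an unadjusted p under 0.05 and a median of 0.17. None of 6 erythroid genes passed either, but their levels varied widely, with a summed level from 1293 to 53636 CPM in double_het and 1845 to 105519 CPM in wild-type, and a median log2 change of 0.69. With the erythroid level as a covariate 5 of the 10 markers passed in double_het. Of genes shared with septum transversum and urogenital mesoderm, Lhx9 rose (0.60, adjusted p 0.0345), and of pharyngeal mesenchyme Tbx1 rose (1.37, adjusted p 0.0348), by edgeR. The summed level of septum transversum and urogenital genes was 25.8 to 34.1 CPM in double_het and 16.0 to 30.2 CPM in wild-type. The median log2 change in double_het was 0.45 for this list (5 of 6 positive), 0.52 for foregut (3 of 3), 0.27 for pharyngeal (4 of 6) and 1.20 for liver genes (3 of 4), against 0.54 for the markers. Foregut genes summed to 1.12 to 17.6 CPM in double_het and 0.553 to 13.4 CPM in wild-type, with Nkx2-1 at 0 in 31 of 37 libraries. The part of tissue carried along at dissection in the marker levels was not tested.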

How the data were processed

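The authors deposited whole-number counts of reads per gene, with no normalization, from RNA extracted with the NEB Monarch kit and NEBNext Ultra II libraries, per the labels' protocols. STAR, featureCounts and GRCm38 (mm10) are named in the submitters' processing notes; versions, gene annotation and the strand setting are not given in the sources used here. All 37 libraries were fitted with edgeR 4.0.16 (R 4.3.3, limma 3.58.1): filterByExpr with a minimum count of 10 and total of 15 (15046 genes), TMM scaling, and factors for genotype and set number. Tests were two-sided quasi-likelihood tests, with Benjamini-Hochberg values over the 15046 genes and a threshold of 0.05. The set 7 library is fitted exactly. Columns of no listed sample numbered 0.

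Correlations used residual log2 CPM (prior count 2) and 100000 permutations, or exact permutation within genotypes of fewer than 10 libraries. Values without the 2 farthest libraries, and those within Nipbl_het without its replicate 2, kept the residuals of the fit with all libraries. Permuting residuals treats them as independent, so these p-values are too small, by an amount that was not measured for these genes. The share of unrelated pairs with a p under 0.05 was checked on simulated data only and is not given here. All markers and both targeted genes were named, other list genes where they passed, and for likeness the genes with the highest r. Promoters were searched for exact letters on both strands. The markers, lists and tests were chosen with earlier results of these data known. Alternatives were other size factors, filters and covariates, no set term, a block of title numbers, DESeq2 1.42.0, surrogate variables (sva 3.50.0), and leaving out each library or set. Added after seeing the data were the Nipbl minus Isl1 comparison, the pair median without Msln and Krt19, the correlation without set 1, and the within-set counts without Nipbl_het replicate 2. Scripts (Python 3.11.15, pandas 2.3.3, numpy 2.4.6, scipy 1.17.1, matplotlib 3.10.9) were tested on simulated data. Reads carry no molecular identifiers, so depth bounds counting error only.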

Additional observations from a re-analysis of the deposited data

Results flagged for a closer look

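In 48 groups of libraries tested for a library far from the others, 7 had one, where chance gives about 1 in 20. Upk1b stood at 73.6 CPM in wild-type replicate 4, with the next library at 54.2 CPM. Sema3d was 18.1 CPM in double_het replicate 8, below the next at 27.6 CPM. Krt19 was 190 CPM in wild-type replicate 4, 498 CPM in Nipbl_het replicate 2 and 444 CPM in double_het replicate 3, with the next libraries at 132, 112 and 238 CPM. Nipbl was 72.4 CPM in the library labelled Nipbl_het replicate 2, against at most 44.9 CPM in the other 8. Isl1 was 13.0 CPM in wild-type replicate 7, with the next at 8.81 CPM.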

How the results depend on the processing

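All 10 double_het changes against wild-type stayed positive under every alternative run. The number of markers past the threshold moved as follows, and the cause was not tested. Calls over all genes moved between settings too, as given below for double_het and Nipbl_het against wild-type. A change in a marker count is therefore not read as particular to the markers. For double_het against wild-type (7) it was 5 with the erythroid covariate, 8 with the block, 8 with surrogate variables, 6 without set 1, 3 without set 2, 0 without set 5, 2 without set 6, and 4 to 8 with 1 library left out (4 without wild-type replicate 5). For Nipbl_het against wild-type (1) it was 2 with no set term, 3 with the replicate block, 2 with DESeq2, 3 with 2 surrogate variables, 2 with the erythroid covariate and 0 without set 2, 5 or 6, and 0 to 2 with 1 library left out (0 without wild-type replicate 5 or Nipbl_het replicate 9). For double_het against Isl1_het (1) it was 3 with no set term, 5 with the block, 2 with DESeq2, 4 with surrogate variables, 2 with the erythroid covariate, 0 without set 5, and 1 to 4 with 1 library left out. For double_het against Nipbl_het (0) it was 1 with surrogate variables. The averaged Nipbl effect (4) gave 8 with no set term, 8 with the block, 6 with surrogate variables, 5 with the erythroid covariate, 3 with no filter on low counts, 1 without set 2, 3 without set 5, 2 without set 6, and 2 to 5 with 1 library left out. The averaged Isl1 effect (1) gave 0 with no set term, the block, the erythroid covariate or without set 1, 2, 5 or 6, 2 with DESeq2, 3 with surrogate variables, and 0 to 2 with 1 library left out. The Nipbl minus Isl1 difference (1) gave 0 with the block or without set 2, 5 or 6, 2 with DESeq2, surrogate variables, the erythroid covariate or without set 1, and 1 to 2 with 1 library left out. Of the correlations (22 positive pairs), 0, 3 and 0 passed within sets 2, 5 and 6, 7 without set 1, and 21 without Nipbl_het replicate 2.

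These signs turned among the values the report gives. Against wild-type, Isl1_het gave Wt1 0.0282 with no set term, 0.0359 with the block and 0.0371 without set 1, and -0.0491 to 0.0397 with 1 library left out. For Upk1b it gave 0.0140 with no set term, 0.0140 with the block, 0.0564 with surrogate variables, 0.0277 without set 5, 0.0143 without set 6, and -0.0870 to 0.0593 with 1 library left out. Msln was at -0.0255 without set 2. In Nipbl_het, Tcf21 was at -0.10 without set 6, Bnc1 at -0.0195 without set 5 and Krt19 at -0.0509 to 0.46 with 1 library left out. For double_het against Nipbl_het, Upk1b was at -0.0208 with the erythroid covariate, -0.0626 without set 2 and -0.0154 to 0.0646 with 1 library left out. The interaction of Upk1b was -0.0308 with surrogate variables, -0.0291 without set 2 and -0.0219 to 0.11 with 1 library left out, and that of Upk3b -0.15 to 0.0213. The averaged Isl1 effect on Upk1b was -0.0313 with the erythroid covariate, -0.0339 without set 1, -0.0480 without set 2 and -0.0305 to 0.0484 with 1 library left out, and on Krt19 0.0695 with the block, 0.0909 with surrogate variables, 0.0413 without set 5 and -0.22 to 0.17. The Nipbl minus Isl1 difference was 0.10 with no set term and 0.12 with the block for Upk3b, and 0.12 and 0.15 for Sema3d. Values that the report does not give turned too. This difference was -0.09 for Tcf21 and reached 0.0909 (without set 5; 0.0327 without Nipbl_het replicate 2), was -0.0137 for Bnc1 and reached 0.23 (with the block; 0.0040 without Nipbl_het replicate 9), and for Msln went from 0.14 to -0.0581 without Nipbl_het replicate 2. The interaction of Bnc1 (0.0130) was -0.0740 without set 6 and -0.0033 without Nipbl_het replicate 9, that of Msln -0.0659 without set 1 and that of Tbx18 -0.0290 without set 2. Within set 6, Wt1 had r of -0.13 with Lrrn4, -0.69 with Sema3d and -0.15 with Bnc1.

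The block used title numbers, which do not pair the libraries: 3 of 37 were closest to one of their own number. Over all genes, calls for double_het against wild-type went from 391 to 610 with the block, 570 with no set term, 1018 with surrogate variables, 235, 113, 67 and 223 without sets 1, 2, 5 and 6. For Nipbl_het they went from 258 to 467 with no set term, 459 with DESeq2, 1854 with surrogate variables, and 118, 31 and 124 without sets 1, 2 and 5. Msln had the fewest counts of the markers, 19 to 109 a library.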
